A study of Mus musculus with 28 samples.

Results

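Transcripts of the bone morphogenetic protein (BMP) pathway were followed in kidney and liver of db/db mice, starting from Grem1, the gene of the BMP antagonist gremlin 1. The 9 genes examined were Grem1, the ligands Bmp2, Bmp4, Bmp6 and Bmp7, and the BMP-responsive genes Id1, Id2, Id3 and Smad7. They were picked by gene symbol, after earlier results of the same libraries had shown Grem1 to be lower with semaglutide in kidney. All 9 were found among 21797 named genes of the kidney table and 22116 of the liver table. The filter on low values (at least 1 FPKM in at least 4 kidney or 3 liver libraries) was passed by 8 of the 9 in kidney, all but Bmp2. In liver 5 passed, Bmp2, Id1, Id2, Id3 and Smad7.

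BMPs are secreted ligands of the TGF-beta superfamily that signal through serine/threonine kinase receptors and the transcription factors Smad1, Smad5 and Smad9. Gremlin 1 binds BMPs outside the cell, chiefly BMP2, BMP4 and BMP7, and keeps them from their receptors. The Id genes, which encode inhibitors of DNA binding, and the inhibitory Smad genes are direct transcriptional targets of this signal. In kidney, BMP7 is needed for nephron formation and is made by tubules in the adult, and gremlin has been studied as a gene induced in diabetic nephropathy. In liver, BMP2 and BMP6 from endothelial cells drive hepatocyte expression of hepcidin, the hormone that limits iron uptake.

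All mice were male C57BL/KsJ db/db, which lack a working leptin receptor and become obese and diabetic, and no lean group was analysed here. From 8 weeks of age they spent 8 weeks as sedentary controls, with high-intensity interval training on a treadmill (HIIT), with semaglutide injected under the skin, or with both (combined). Semaglutide is a long-acting agonist of the receptor for glucagon-like peptide 1. The labels state 0.05 mg/kg in one place and 30 nmol/kg in another, which are not the same amount, and which was given is not settled by them. Each group had 4 kidney libraries (16 in all) and 3 liver libraries (12 in all). Values are FPKM, fragments scaled to transcript length and library total, and the depth behind them is unknown.

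Some libraries stood apart from the rest of their tissue. The median correlation of kidney control 1 with the other kidney libraries was 0.910, against 0.959 to 0.980 for the others. Summed macrophage markers reached 5190 FPKM in it, against 77.1 to 293 elsewhere, and summed fibroblast and stroma markers 477 FPKM, against 21.7 to 81.1. In liver the median correlation was 0.939 for control 3 and 0.900 for semaglutide 2, against 0.976 to 0.983 for the others. Summed skeletal muscle markers were 7267 FPKM in liver semaglutide 2 and at most 0.183 FPKM in the other livers. Some results that rest on these libraries are given with and without them, a choice made after seeing the data. The others are given with all libraries only. Defining markers of the labelled tissue were present: summed proximal tubule markers ran from 910 to 2156 FPKM in kidney and summed hepatocyte markers from 15360 to 38788 FPKM in liver. Bulk RNA cannot tell fewer cells of a type from less RNA per cell.

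The sequences upstream of Grem1 and Id2 are shown because these were the members whose kidney libraries did not overlap between control and semaglutide, in opposite directions. RefSeq promoter tables (build GRCm38.p6) held 5 of the 9 genes, Grem1, Bmp4, Bmp6, Id2 and Id3. For Grem1, Bmp4 and Id2 a stretch of bases shortly after the RefSeq start was also found in the first part of a GENCODE M21 transcript. It was not found there for Bmp6 and Id3. A match does not show that the RefSeq and GENCODE starts are the same base. The lines below give the 250 bases before the start of Grem1 (chr2:113758649-113758898, minus strand) and of Id2 (chr12:25096093-25096342, minus strand), 5′ to 3′. Capitals mark GGCGCC, a GC-rich sequence bound by BMP-activated Smads, and CAGAC or its reverse complement GTCTG, a Smad box. The 2 motifs do not overlap in these sequences.
Grem1: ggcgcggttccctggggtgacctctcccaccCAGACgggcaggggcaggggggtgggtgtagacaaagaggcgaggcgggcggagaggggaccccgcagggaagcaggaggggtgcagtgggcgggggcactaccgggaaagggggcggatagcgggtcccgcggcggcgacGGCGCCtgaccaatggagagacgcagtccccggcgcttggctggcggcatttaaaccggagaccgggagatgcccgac
Id2: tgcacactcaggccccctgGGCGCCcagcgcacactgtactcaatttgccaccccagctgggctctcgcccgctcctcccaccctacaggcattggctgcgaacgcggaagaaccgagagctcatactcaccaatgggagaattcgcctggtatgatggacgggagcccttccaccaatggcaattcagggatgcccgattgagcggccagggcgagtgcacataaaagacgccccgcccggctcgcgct
Grem1 held 1 GGCGCC and 1 CAGAC, and Id2 held 1 GGCGCC and 0 of the other. GGCGCC is found in 9.6% of 32851 RefSeq promoter windows of the same length and CAGAC or GTCTG in 42.2%. The matches are letters in a window and were not tested for binding.

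Grem1 in kidney was 3.56, 3.77, 1.96 and 6.07 FPKM in control libraries 1 to 4. It was 0.139, 0.0245, 0.107 and 0.218 FPKM in the 4 semaglutide libraries. Every semaglutide library lay far below every control, and the highest semaglutide value was below the lowest of all 12 other kidney libraries. The group means were 3.84 ± 1.70 FPKM (SD, n = 4) in controls and 0.122 ± 0.0799 FPKM with semaglutide, a 31.5-fold ratio of means. On the log2(FPKM + 1) scale the difference was -2.04 ± 0.29 (standard error, used after ± for all log2 differences). That scale understates changes of weakly expressed genes, and with a pseudocount of 0.1 the difference was -4.12. It ran from -2.26 to -1.84 when each of the 8 libraries was left out in turn. This contrast is the one that chose Grem1, so its size is a description and carries no test. The share of all 11551 tested kidney genes that limma called in that comparison was 0.00866%, and nothing is read from it here.

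**Figure D1:**
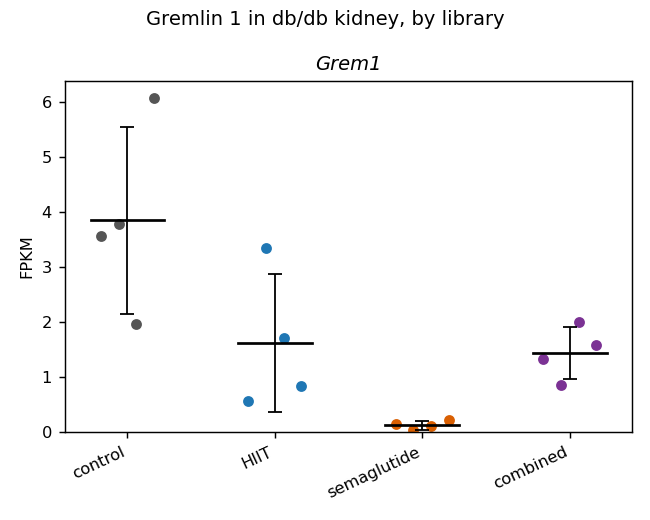
Grem1 in the 16 kidney libraries, in FPKM on a linear axis starting at 0, by group. Points are libraries, wide lines group means and bars 1 SD. The 4 semaglutide libraries lie lowest, at most 0.218 FPKM, and the lowest of the others is at 0.554 FPKM.

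Grem1 in both trained groups lay between the semaglutide and control means. The HIIT libraries had 0.554, 3.34, 1.70 and 0.833 FPKM, with a mean of 1.61 ± 1.25 FPKM (SD, n = 4), and overlapped the controls. The combined libraries had 1.33, 0.857, 1.99 and 1.57 FPKM, with a mean of 1.44 ± 0.474 FPKM. They overlapped both the HIIT and the control libraries, and each lay above every semaglutide library. In order of mean, semaglutide was lowest, then combined, HIIT and control, and only semaglutide was separated from its neighbour in that order.

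Differences of Grem1 from control were -0.94 ± 0.29 with HIIT and -0.94 ± 0.29 with both treatments, and combined exceeded semaglutide alone by 1.10 ± 0.29. These differences share control or semaglutide libraries with the contrast that chose the gene and are given without a test. The comparison of combined with HIIT shares neither. There the difference in Grem1 was -0.00 ± 0.29, with limma adjusted p = 1, and it ran from -0.21 to 0.28 when single libraries were left out. A difference between combined and HIIT was thus not detectable, and the standard error leaves room for one in either direction. The interaction, the semaglutide difference in trained minus that in sedentary mice, was 2.04 ± 0.41 and holds the libraries that chose the gene.

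The level of Grem1 was set beside markers of the cell types and zones that a kidney sample can hold in differing amounts. Summed markers of inner medulla and papilla ran from 166 to 581 FPKM in semaglutide libraries, 154 to 342 FPKM in controls, 131 to 275 FPKM with HIIT and 232 to 502 FPKM with both. On average Aqp1 made up most of this sum, with a mean of 215 FPKM in the semaglutide group and 202 FPKM in control kidneys. The same list reached 56.5 FPKM in liver, where Aqp1 reached 56.4 FPKM. Semaglutide 3 summed to 192 FPKM with Slc14a2 near 0, so the sum does not measure inner medulla alone. Slc14a2, a urea transporter gene of the inner medulla, was 18.9, 62.0, 0.0189 and 4.40 FPKM in the 4 semaglutide libraries. Grem1 was at most 0.218 FPKM in all 4, whether Slc14a2 was high or near 0. Summed fibroblast and stroma markers were 28.2 to 81.1 FPKM with semaglutide and 30.9 to 477 FPKM in controls, where 477 is control 1. The other 3 controls had 30.9 to 45.5 FPKM, and the semaglutide libraries had 47.4, 56.6, 28.2 and 81.1 FPKM, so without control 1 the semaglutide libraries lay above them in 3 cases and below them in 1. Smooth muscle markers summed to 64.9 to 166 FPKM with semaglutide and 49.4 to 113 FPKM in controls, and urothelial markers to 1.00 to 24.6 and 2.63 to 30.0 FPKM. With all libraries the semaglutide and control ranges overlapped in each of these 4 lists, and none of the 5, 6, 5 and 6 listed markers stayed under 1 FPKM in all kidney libraries. Podocyte markers summed to 73.3, 48.1, 76.4 and 77.5 FPKM with semaglutide and 82.4, 117, 70.8 and 106 FPKM in controls. Distal tubule markers summed to 104 to 280 FPKM with semaglutide and 154 to 348 FPKM in controls. Collecting duct markers summed to 219 to 454 FPKM with semaglutide and 244 to 710 FPKM in controls. Only control 3 overlapped the semaglutide podocyte sums, and only control 1 the distal tubule and collecting duct sums. The other controls had at least 477 FPKM of collecting duct markers. Thick ascending limb sums were 230 to 1056 FPKM and 259 to 532 FPKM. Their part in the result was not tested. Adipocyte markers summed to 424 FPKM in semaglutide 4 and to at most 96.0 FPKM in all other kidney libraries, and Grem1 was highest of its group in that library (0.218 FPKM).

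**Figure D2:**
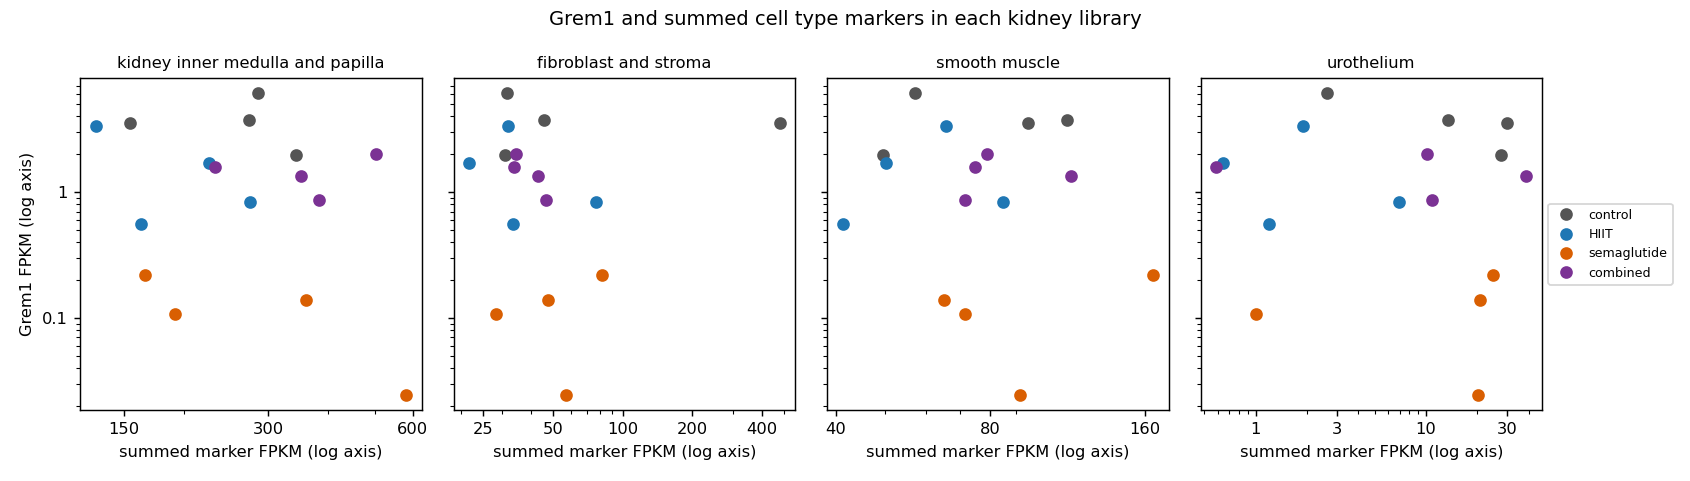
Grem1 (vertical, FPKM, log axis) against the summed FPKM of 4 marker lists (horizontal, log axes) in each of the 16 kidney libraries, coloured by group. The 4 semaglutide libraries lie at 0.218 FPKM or below at low and high marker sums alike, from 166 to 581 FPKM for inner medulla and papilla. The inner medulla and papilla sum is on average mostly Aqp1.

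Across all 16 kidney libraries the genes whose log2(FPKM + 1) was most like that of Grem1 included Acpp (Pearson r = 0.79), Mrnip (0.79), Tdrd5 (0.74) and Mthfsl (0.72), 4 of the first 5. These libraries share the group differences and the control group that chose Grem1, so the values describe likeness and carry no test. Acpp, which encodes an acid phosphatase, averaged 2.35 ± 0.709 FPKM (SD, n = 4) in the control group. Its mean was 1.16 ± 0.298 FPKM after HIIT, 0.676 ± 0.133 FPKM after semaglutide and 1.10 ± 0.131 FPKM after both. Its order of group means, semaglutide, combined, HIIT and control, was that of Grem1. Without control 1 the 5 most alike over 15 libraries were Dnajc12 (0.82), Car15 (0.80), Bco2 (0.78), Acpp (0.78) and Mrnip (0.78), so 2 of the first 5 remained. At the other end, Id2 had the lowest r of all 11550 genes, -0.71, and Id3 had -0.65. Without control 1 these were -0.71 and -0.79, and Id2 ranked 11544, no longer the lowest.

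The ligand genes of the kidney had differences of at most 0.49 on the log2 scale in either direction, and none was called. Bmp4, which encodes a ligand bound by gremlin 1, was 10.0, 9.75, 9.80 and 9.83 FPKM in controls and 7.37, 8.58, 9.55 and 8.59 FPKM with HIIT. Every HIIT library lay below every control. The 4 combined libraries had 11, 11.8, 11.1 and 12.7 FPKM, above every control and every HIIT library. Semaglutide libraries spread from 9.30 to 15.6 FPKM and overlapped the controls. The combined difference was 0.22 ± 0.15 from control (limma adjusted p = 0.994) and 0.41 ± 0.15 from HIIT (adjusted p = 0.785), so neither passed. The HIIT difference, -0.19 ± 0.15 (limma adjusted p = 0.455), turned to 0.08 after median-ratio scaling. An antisense predicted gene overlaps Bmp4, and Txndc5 overlaps Bmp6 on the opposite strand. Whether counting used strand is not stated in the labels or notes used here, so the levels of both ligands are uncertain to that extent.

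Bmp6 was 30.3, 22.6, 26.3 and 28.5 FPKM in controls and 21.6, 21.9, 19.3 and 16.3 FPKM in combined libraries. All 4 combined libraries lay below all 4 controls, with a difference of -0.43 ± 0.24 that did not pass (limma adjusted p = 0.994). HIIT libraries had 13.6, 15.0, 20.6 and 29.4 FPKM, with a difference of -0.49 ± 0.24 (limma adjusted p = 0.378), which was -0.20 ± 0.15 after median-ratio scaling (adjusted p = 0.667). Leaving out HIIT 4, the library with the highest value, made this -0.70 ± 0.22 with limma adjusted p = 0.0432. That omission took the genes called in the whole comparison from 0 to 2123 of 11472, or 18.5%, all but 50 of them lower, and Bmp6 was the 1 of the 9 called. HIIT 4 also had the most thick ascending limb marker RNA of the 16 kidney libraries, 1180 FPKM summed, and its part in the result was not tested.

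Bmp7, the ligand of tubules, ran from 8.90 to 16.9 FPKM over the 16 kidney libraries, with group means of 11.8 to 14.6 FPKM and overlap between all groups. Its differences from control were -0.29 ± 0.19 with HIIT and 0.02 ± 0.19 with both, with limma adjusted p of 0.406 and 0.994. Bmp2 was scarce, from 0.425 to 0.880 FPKM, and was not tested. Its group means, 0.639 to 0.726 FPKM, were nearly level.

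The Id genes, read as BMP targets, were higher on average with semaglutide, in the contrast that chose Grem1 and so without a test. Id2 was 113, 97.3, 119 and 80.1 FPKM in controls and 175, 160, 230 and 126 FPKM with semaglutide. The groups did not overlap, and the difference was 0.73 ± 0.30. HIIT libraries of Id2 spread widely, with 107, 77.5, 161 and 259 FPKM, and combined libraries had 124, 193, 106 and 128 FPKM. Both overlapped the controls and the semaglutide group.

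Id3 was 57.3, 34.0, 26.4 and 24.2 FPKM in controls and 43.3, 67.4, 64.9 and 45.4 FPKM with semaglutide. The overlap came from control 1 alone, the library rich in macrophage and stroma markers, and the difference was 0.68 ± 0.26 with it and 0.93 ± 0.23 without it. Id1 was 30.2, 26.7, 16.5 and 18 FPKM in controls and 27.3, 45.5, 31.6 and 29.2 FPKM with semaglutide. Again only control 1 overlapped, and the difference was 0.54 ± 0.23 with it and 0.69 ± 0.23 without it. Id4, a further Id gene from the list of other targets, was 5.97, 4.53, 4.41 and 3.84 FPKM in controls and 11.1, 15.9, 9.56 and 5.34 FPKM with semaglutide. Here too control 1 alone overlapped, and the difference was 0.94 ± 0.31. Smad7, whose product blocks BMP and TGF-beta receptors, ran from 2.18 to 5.09 FPKM in kidney with overlap between all groups, and differed by 0.23 ± 0.21 with semaglutide.

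In the other kidney comparisons none of the 7 tested members besides Grem1 was called by limma, with 0 at an unadjusted p under 0.05 for HIIT against control, combined against control, combined against semaglutide and the interaction, and 1 (Bmp4) for combined against HIIT. The share of all 11551 genes called was 0% for HIIT, 0% for combined treatment and 0% for the interaction, and 0.00866% each for combined against HIIT and combined against semaglutide. In that order 1439, 345, 456, 686 and 132 genes had an unadjusted p under 0.05. A count of 0 among the members is thus also what nearly all of the table gave. For combined treatment against control the Id genes differed by 0.36 ± 0.23 (Id1), 0.40 ± 0.30 (Id2) and 0.45 ± 0.26 (Id3), each with limma adjusted p = 0.994. For HIIT they differed by 0.23 ± 0.23, 0.43 ± 0.30 and 0.19 ± 0.26, with limma adjusted p of 0.526, 0.419 and 0.639. The 3 sets of differences from control share the control libraries.

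**Figure D3:**
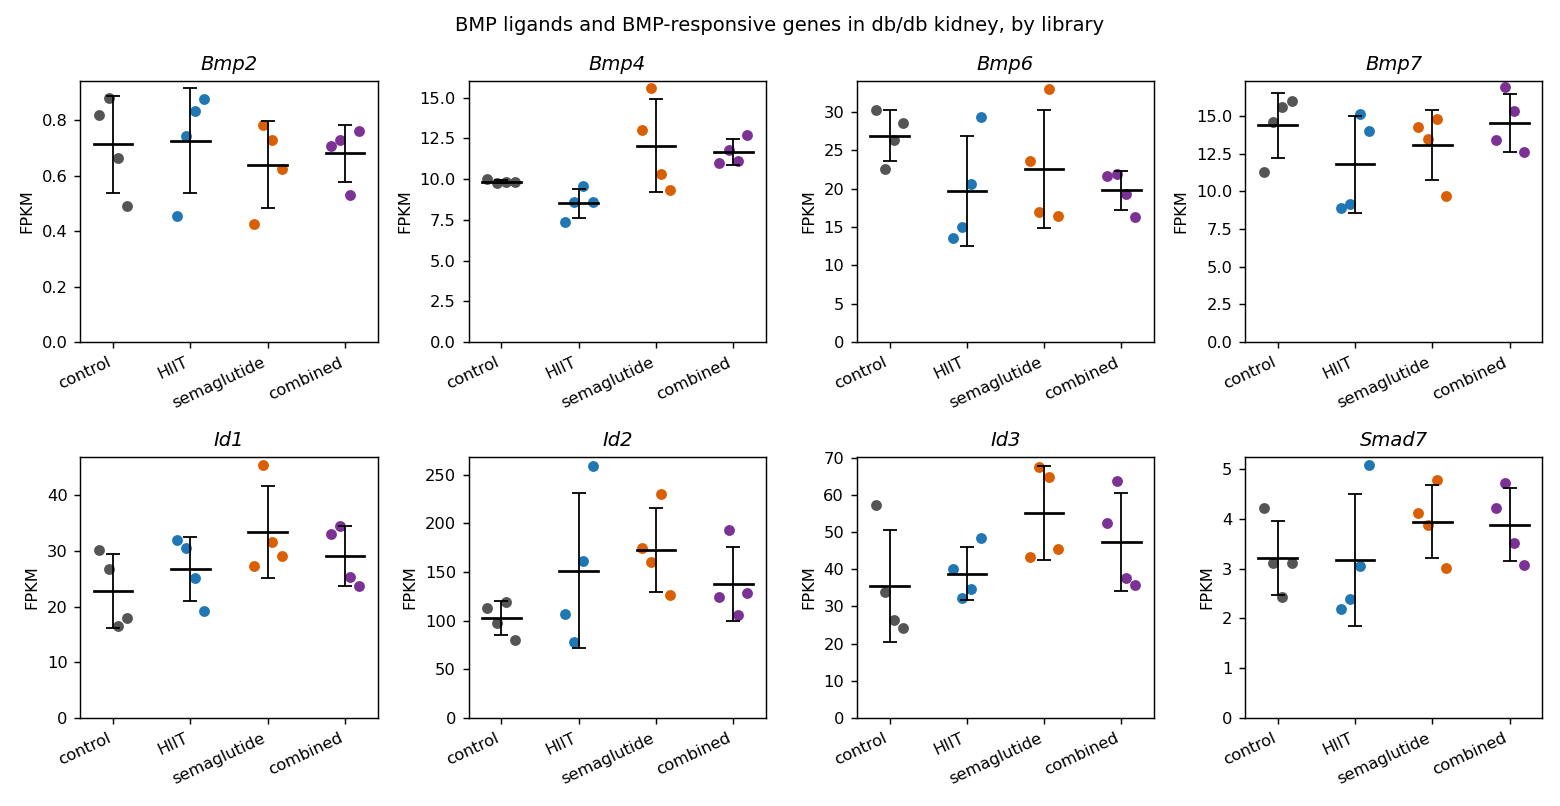
The 8 other members in the 16 kidney libraries, in FPKM on linear axes starting at 0. Points are libraries, wide lines group means and bars 1 SD. Id2 does not overlap between control (at most 119 FPKM) and semaglutide (at least 126 FPKM), and Bmp4 is higher in each combined library than in each control.

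The median difference of all tested kidney genes was -0.26 with HIIT, -0.14 with semaglutide, -0.09 with both, 0.16 for combined against HIIT and 0.31 for the interaction, and at most 0.01 from 0 after median-ratio scaling. Relative to that shift the Id genes stood higher, with semaglutide differences of 0.71 (Id1), 0.91 (Id2) and 0.85 (Id3) after scaling, and Grem1 stood at -1.92. With HIIT the scaled differences were 0.53, 0.73 and 0.49 for Id1, Id2 and Id3. The members whose sign turned with scaling were Bmp4 and Smad7 (HIIT against control and the interaction), Bmp7 (semaglutide against control), and Bmp6 and Id1 (combined against HIIT). Bmp6 went from 0.36 to -0.00 in the interaction.

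**Figure D4:**
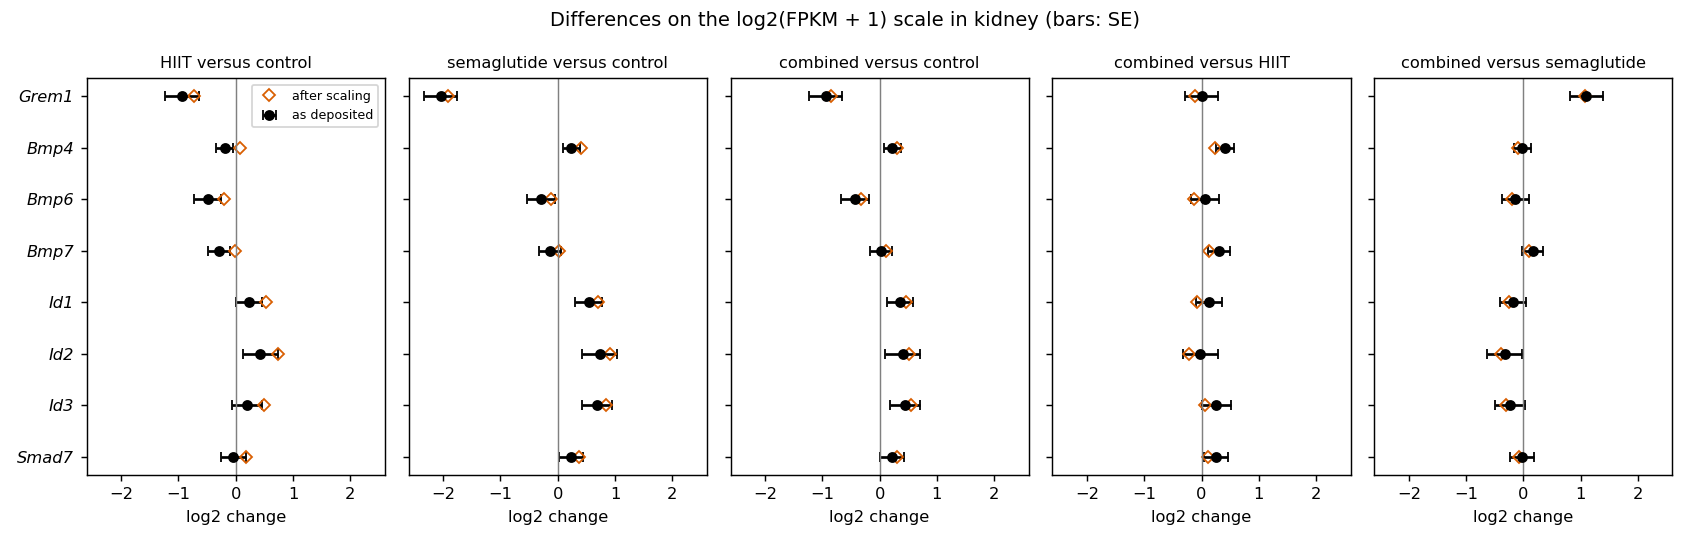
Differences between kidney groups on the log2(FPKM + 1) scale for the 8 tested members. Black points are as deposited with bars of 1 SE, and open diamonds are after median-ratio scaling. Grem1 lies at -2.04 for semaglutide against control, and the Id genes lie to the right of 0 in each comparison with control.

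The wider BMP pathway of the kidney was read from 51 further genes, 29 of them tested. limma called 0 of the 29 in the 5 comparisons tested. At an unadjusted p under 0.05 there were 1 with HIIT, 2 with both treatments, 1 for combined against HIIT, 1 for combined against semaglutide and 0 for the interaction. For combined treatment against control 17 of the 29 lay above 0, with a median of 0.01, against -0.09 over all genes, and without control 1 the numbers were 19 of 29 and 0.09. Fst, the gene of follistatin, which binds activins and some BMPs, was 4.23, 7.15, 8.06 and 7.93 FPKM in combined libraries and 1.06, 1.83, 0.571 and 2.84 FPKM with HIIT. The groups did not overlap, and the difference of 1.65 ± 0.54 did not pass (limma adjusted p = 0.763). Id4 was also higher in each combined library than in each control, by 0.71 ± 0.31 (limma adjusted p = 0.994). Rgmb, a BMP co-receptor gene, had the smallest p of the receptor list with HIIT, at -0.54 ± 0.19 (limma adjusted p = 0.378). Of 13 tested TGF-beta and fibrosis genes limma called 0 in these comparisons, with 1 at an unadjusted p under 0.05 for HIIT and 0 in the others. Their median difference was -0.46 with HIIT and -0.33 with both, beside -0.26 and -0.09 over all genes. These medians rest on control 1: without it they were -0.03 and 0.11, over the 12 genes that then passed the filter. Twsg1, a BMP-binding modulator, was 0.123 to 0.55 FPKM in 5 of the kidney libraries, across 3 of the groups. It was at least 13.6 FPKM in the others and is not read further. Tgfbr1 was 0.64 FPKM in kidney control 2 and at least 4.31 FPKM in the other kidney libraries. The cause of these drops, and whether it reaches other genes such as Grem1, was not tested.

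In liver Grem1 was listed at 0 in 7 of 12 libraries. It was above 0.1 FPKM in the combined livers alone, with 0.130, 0.167 and 0.236 FPKM. The other livers had at most 0.0301 FPKM, and the gene was not tested. The kidney and liver tables were made separately, and no level was compared between them.

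Bmp2, the ligand that liver endothelium makes, was 2.02, 2.21 and 1.56 FPKM in control livers and 3.08, 3.62 and 3.05 FPKM in combined livers. HIIT livers had 1.64, 2.27 and 2.09 FPKM and semaglutide livers 2.95, 2.54 and 2.29 FPKM. Combined livers lay above all others and semaglutide livers above all control and HIIT livers. The differences from control were 0.30 ± 0.13 with semaglutide and 0.54 ± 0.13 with both, with limma adjusted p of 0.319 and 0.135. Without control 3 and semaglutide 2 they were 0.21 ± 0.14 and 0.45 ± 0.13, with limma adjusted p of 0.538 and 0.0888. Summed endothelial markers separated combined from control livers, with 22.6 to 25.2 FPKM in controls and 33.8 to 36.5 FPKM with both. So did sinusoidal endothelial markers, with 30.1 to 40 and 40.6 to 53.1 FPKM. With all libraries neither list separated combined livers from the HIIT or semaglutide ranges. The overlap with semaglutide came from semaglutide 2 alone, in both lists. The other semaglutide livers had 23.9 and 29.7 FPKM of endothelial and 37.5 and 37.1 FPKM of sinusoidal markers, below every combined liver. Endothelial sums were 24.8 to 35.7 FPKM with HIIT and 23.9 to 67.6 FPKM with semaglutide. Sinusoidal sums were 34.2 to 41.6 FPKM with HIIT and 37.1 to 42.9 FPKM with semaglutide. Their part in the result was not tested. Combined exceeded HIIT by 0.51 ± 0.13 (limma adjusted p = 0.149).

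Among the tested members Id1 had the largest differences from control in liver. It was 2.92, 1.85 and 7.36 FPKM in controls, 4.32, 5.62 and 5.68 FPKM with HIIT, 5.52, 16.7 and 5.84 FPKM with semaglutide and 10.1, 8.85 and 9.96 FPKM with both. The highest control and the highest semaglutide value came from the libraries that stood apart, control 3 and semaglutide 2. Combined livers lay above every control liver even so. The difference from control was 1.03 ± 0.41 with semaglutide (limma adjusted p = 0.275) and 1.23 ± 0.41 with both (adjusted p = 0.243).

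**Figure D5:**
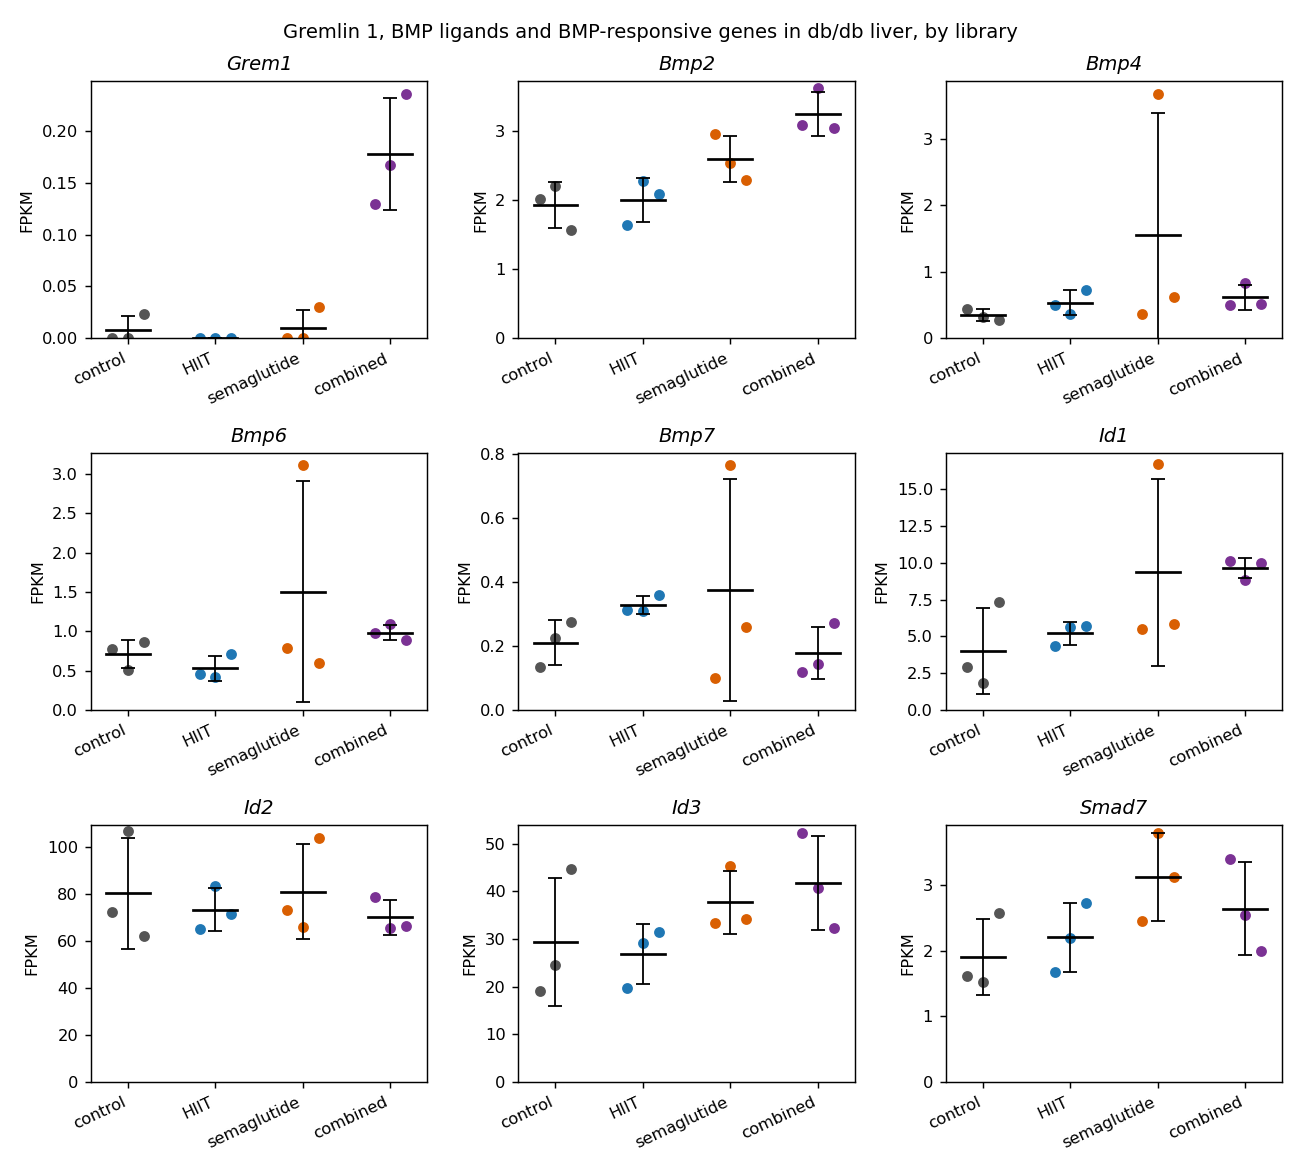
The 9 members in the 12 liver libraries, in FPKM on linear axes starting at 0. Points are libraries, wide lines group means and bars 1 SD. Combined livers are highest for Bmp2 (at least 3.05 FPKM), and semaglutide 2 stands above the others for Bmp4, Bmp6, Bmp7 and Id1.

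With all 12 libraries limma called 0 of the 5 tested members in every liver comparison. At an unadjusted p under 0.05 there were 3 with semaglutide (Bmp2, Id1 and Smad7), 2 with both treatments (Bmp2 and Id1), 1 for combined against HIIT (Bmp2) and 0 in the other 3. Of all 10348 genes 15.3%, 12.2% and 12% had such a p in these comparisons. The share of all 10348 genes called was 0% for HIIT, 0.715% for semaglutide, 0.309% for both, 0.116% for combined against HIIT, 0% for combined against semaglutide and 0.00966% for the interaction. The median difference over the 5 was 0.42 with semaglutide and 0.54 with both, against 0.09 and 0.05 over all genes.

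Without control 3 and semaglutide 2, which leaves 2 livers in each of these groups, Id1 rose with semaglutide by 1.00 ± 0.16 (limma adjusted p = 0.0352) and with both by 1.67 ± 0.15 (adjusted p = 0.00227). In these comparisons 0.593% and 3.07% of 10114 genes were called. Combined treatment exceeded HIIT by 0.78 ± 0.13 for Id1 (limma adjusted p = 0.0123) and by 0.51 ± 0.11 for Bmp2 (adjusted p = 0.0305), where 7.63% of genes were called. The same livers were narrowly separated by summed macrophage markers, 80.6 to 128 FPKM with both and 42 to 80.1 FPKM with HIIT. Fibroblast and stroma markers also separated them, 96.2 to 112 and 71.5 to 88.4 FPKM. Among the macrophage markers Cd74 differed most, with means of 51.2 and 19.4 FPKM, and Adgre1 was level, with 1.44 and 1.43 FPKM. Kupffer cell markers overlapped, 34.7 to 47.4 and 26.2 to 42.4 FPKM, and so did endothelial markers, 33.8 to 36.5 and 24.8 to 35.7 FPKM. The part of these markers in the result was not tested. The comparison of combined with HIIT holds neither divergent library, and its differences were the same with and without them. The standard error of Id1 was 0.41 with them, since the fit shares 1 spread over the groups. With only the 6 HIIT and combined libraries in the fit both genes were also called (limma adjusted p of 0.0140 and 0.0443), with 5.64% of genes. The remaining comparisons without the 2 libraries called 0 members, with 0% of genes for HIIT, 0.435% for combined against semaglutide and 0.00989% for the interaction. For Id1 the HIIT difference was then 0.89 ± 0.15, with limma adjusted p = 0.451.

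Id3 in liver was 19.1, 24.6 and 44.6 FPKM in controls and 52.2, 40.7 and 32.4 FPKM with both treatments, where the highest control was again control 3. Combined exceeded HIIT (19.7, 29.2 and 31.5 FPKM) without overlap, by 0.62 ± 0.30 (limma adjusted p = 0.441), or 0.62 ± 0.20 with adjusted p = 0.0919 without the divergent libraries. Id2, summed over 3 transcripts, was 61.9 to 107 FPKM in all livers and differed from control by at most 0.16 in either direction, with overlap between all groups. Without the 2 divergent libraries it differed by -0.27 ± 0.20 with HIIT and -0.33 ± 0.20 with both (limma adjusted p of 0.850 and 0.380), and with semaglutide its sign turned on scaling, from 0.02 to -0.09. Smad7 was 1.62, 1.52 and 2.57 FPKM in controls and 2.46, 3.8 and 3.13 FPKM with semaglutide, a difference of 0.51 ± 0.20 (limma adjusted p = 0.262). Without the 2 libraries the groups did not overlap, and the difference was 0.56 ± 0.20 (adjusted p = 0.234).

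The other ligands were scarce in liver and not tested. Bmp4, Bmp6 and Bmp7 reached 3.67, 3.12 and 0.766 FPKM in semaglutide 2, the library with skeletal muscle and adipocyte transcripts, and at most 0.828, 1.09 and 0.359 FPKM in the other 11. Bmp6 was 0.770, 0.508 and 0.859 FPKM in controls and 0.980, 1.09 and 0.888 FPKM with both treatments, a difference without overlap.

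Of the 51 further BMP genes 27 were tested in liver and limma called 0 with all libraries. At an unadjusted p under 0.05 they numbered 5 with HIIT, 7 with semaglutide and 7 with both, where 7.22%, 15.3% and 12.2% of all genes did. Hamp, which encodes hepcidin, the best known BMP target of hepatocytes, was 695, 936 and 1408 FPKM in controls, 283, 581 and 417 FPKM with HIIT, 776, 436 and 910 FPKM with semaglutide and 655, 497 and 430 FPKM with both. The semaglutide livers overlapped the controls. The HIIT and combined livers lay below all controls, the highest of which was control 3, with differences of -1.24 ± 0.36 and -0.90 ± 0.36 that did not pass (limma adjusted p of 0.676 and 0.331). Gdf2, the gene of BMP9, a ligand made in liver, was 3.03, 1.56 and 1.39 FPKM in controls, 3.76, 3.06 and 3.60 FPKM with HIIT, 2.81, 1.68 and 3.25 FPKM with semaglutide and 4.15, 4.10 and 4.05 FPKM with both. The semaglutide livers overlapped the controls, the HIIT and combined livers did not, and the combined difference was 0.81 ± 0.21 (limma adjusted p = 0.150). Atoh8, a BMP-responsive transcription factor gene, differed by -0.64 ± 0.18 with both (limma adjusted p = 0.183). Its highest control value was that of control 3, 12.4 FPKM. Among regulators Hjv, the hepatocyte co-receptor gene of the hepcidin pathway, differed by 0.40 with both at a limma unadjusted p of 0.0416. Bmper, a BMP-binding endothelial regulator gene, differed by -1.25 with HIIT at a limma unadjusted p of 0.00981. It was 1.56, 7.21 and 9.21 FPKM in controls, highest in control 3, and 1.26, 1.59 and 1.72 FPKM with HIIT, with overlap. With all libraries Hamp and Atoh8 thus had lower means where Id1 had higher means, and none of the 3 passed. For Hamp with semaglutide the lower mean rested on the divergent libraries. Without control 3 and semaglutide 2, Hamp was 695 and 936 FPKM in controls and 776 and 910 FPKM with semaglutide, which is not lower. Hamp2, the remaining tested gene of the list of other targets, went the other way on average. It was 380, 75.9 and 41 FPKM in controls and 305, 328 and 344 FPKM with HIIT. Semaglutide livers had 315, 180 and 262 FPKM and combined livers 74.5, 259 and 456 FPKM, and each treated group overlapped the controls. Without the divergent libraries Ski, a Smad co-repressor gene, was higher in combined than in HIIT livers by 0.56 ± 0.13 (limma adjusted p = 0.0325).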

How the data were processed

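Stranded poly(A) libraries were sequenced from kidney and liver, per the labels' protocols. Trimmomatic 0.36, STAR 2.7.9a, StringTie 2.1.4, featureCounts 2.0.1, CASAVA, FastQC and the build GRCm39 appear in the submitters' processing notes, which give no role for each. The values are FPKM as deposited by the authors, per gene in kidney and per transcript in liver, where 66878 transcripts were summed here by gene name. Unnamed loci (470 liver, 1853 kidney) held up to 11.5% of a library's summed FPKM and were left out. Low values gave no whole reads: in liver 22.3 to 28.8% lay within 0.05 of a multiple of the best step, and each kidney library held values of 0.00012 FPKM or less. Depth is therefore unknown, and precision comes from the spread between libraries.

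Groups came from the labels. Nothing in them says that libraries are from separate animals, and the p-values then cover only the variation among these libraries, which may be technical. limma 3.58.1 (R 4.3.3) was fitted to log2(FPKM + 1) of all genes past the filter of 1 FPKM in 4 kidney or 3 liver libraries, with 4 group means, an intensity trend and Benjamini-Hochberg adjustment over all genes of a comparison, at a threshold of 0.05. The code was tested on simulated data. The members and gene lists were chosen with earlier results of these data known. Named pathway genes were any that passed, with up to 3 others per list by smallest p, and genes like Grem1 were the 5 with the highest correlation, predicted genes skipped. Other settings tried were 0.1 as pseudocount, all genes unfiltered, scaling by median ratios, a block for replicate number, a fit to the compared groups alone, each library left out and, chosen after seeing the data, the divergent libraries left out. Promoters came from RefSeq (GRCm38.p6) and gene overlaps from GENCODE M21, another build than that of the values. Some genes of the lists are not reported here.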

Additional observations from a re-analysis of the deposited data

Results flagged for a closer look

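For Bmp6 the difference between combined treatment and control had opposite signs in the 2 tissues, -0.43 in kidney and 0.22 in liver, with no overlap between treated and control libraries in either. The kidney difference did not pass (limma adjusted p = 0.994) and the liver difference was not tested. The difference between the tissues was not tested, because their tables were made separately, and Bmp6 did not pass the filter on low values in liver.

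No kidney library stood apart from its group in any of the 36 sets of 4 values of the 9 members by Dixon's criterion, which chance meets in about 1 of 20 groups.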

How the results depend on the processing

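Of 154 recomputed counts of called members 149 stayed within 1.5 times the count first given, and 5 moved from 0. The count for kidney HIIT against control was 0 to 1 over single libraries left out (1 without HIIT 4, Bmp6). In liver it was 1 for semaglutide against control and 1 for combined against control (Id1 in both) with the divergent libraries left out. For liver combined against HIIT it was 2 with them left out and 2 with only the groups compared (Bmp2 and Id1 in both cases). With the replicate number as a block (replicate block) 0 members were called in each comparison. Residuals of same-numbered libraries correlated at -0.47 to 0.33 in kidney, with a median of 0.08, against -0.02 for other pairs. In liver they correlated at -0.31 to 0.16, with a median of -0.09, against 0.03. With so few libraries these values cannot decide whether replicate numbers pair the libraries, and the main fit assumed no pairing. No called value changed sign under these settings, and the uncalled members whose sign turned with scaling, 5 in kidney and Id2 in liver, are named above. Unknown depth limits Grem1 with semaglutide and in liver, where values near 0 cannot be told from absence. The cause of the moves was not tested.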
